A study of Homo sapiens with 12 samples.

Results

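Genes for the translation initiation and elongation factors were followed across 4 groups of Huh7 cells, a human hepatocellular carcinoma line. They were every row whose symbol starts with EIF or EEF and a digit, without a hyphen and without the letter P and a number at its end (the form of pseudogene symbols), whose count was 10 or more in 3 or more samples. That left 58 genes of the 63677 rows in the count table, and of the 17092 genes tested. Each group held 3 samples of RNA from Huh7 cells, taken after 6 h in medium alone (untreated), with bare graphene oxide (GO) at 400 µg/mL, with GO carrying the ginseng saponin ginsenoside Rg3 (GO-Rg3) at 400 µg/mL, or with GO carrying both Rg3 and the topoisomerase poison doxorubicin (GO-Rg3-DOX) at 100 µg/mL. The GO-Rg3-DOX dose was lower than the other doses and cells given free doxorubicin were not analysed here, so dose, carrier and drug cannot be told apart in that group. The study asked how the bare carrier changes the cells and whether Rg3 and doxorubicin on the carrier alter that response. No source used here says whether the 3 samples of a group came from separate cultures beyond separate wells, so p-values measure the spread between these samples, which may be technical.

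Initiation factors bring the small ribosomal subunit, the initiator tRNA and a capped mRNA together, and elongation factors then deliver tRNAs and move the ribosome along. The factor eIF2 carries the initiator tRNA, eIF2B recharges it with GTP, and the EIF2AK kinases stop that recharging under stress by phosphorylating the eIF2 alpha subunit. The large complex eIF3 sits on the small subunit, while the cap-binding eIF4E, the scaffold eIF4G and the helicase eIF4A form the complex that loads mRNA. Many mRNAs for these proteins begin with a C and a run of pyrimidines, a start sequence through which growth signalling adjusts their translation, and CACGTG is the sequence that MYC and related factors recognise. Protein and translation were not measured, so every value below is an mRNA level or a difference between mRNA levels.

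The first 30-base runs belong to members that share that start and were called under the TMM scaling described below. EEF1A1, EEF1B2 and EIF3M fell in GO. In GO-Rg3-DOX, EEF2 and EIF3F rose, and EIF3M, EIF4A2 and EIF4B fell. Of these calls, those of EEF1B2 in GO and of EEF2 and EIF4A2 in GO-Rg3-DOX were kept under all the scalings compared below. RefSeq promoter windows (GRCh38.p14, 250 bases before and 50 bases from each annotated start) were found for 48 of the 58 members. In 13 of the 48 (27.1%), at least 1 window had a C at the start followed by at least 4 pyrimidines on the transcribed strand, against 5.14% of the 27305 genes that have windows. Those genes were not limited to the ones tested in these cells, whereas the members had all passed the count minimum. Capitals mark the C and its pyrimidine run, cut at the end of the printed stretch, which runs from 20 bases before the start to 10 bases from it.
EEF1A1 (chr6:73521023-73521052, minus strand): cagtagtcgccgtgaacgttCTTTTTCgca
EEF1B2 (chr2:206159875-206159904, plus strand): attttccggtctcttcgggtCCTTTTTCCT
EEF2 (chr19:3985454-3985483, minus strand): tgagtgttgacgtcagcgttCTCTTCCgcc
EIF3F (chr11:7987317-7987346, plus strand): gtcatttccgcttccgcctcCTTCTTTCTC
EIF3M (chr11:32583811-32583840, plus strand): gcgtcgcgcggcccagttccCTTTTCCggt
EIF4A2 (chr3:186783557-186783586, plus strand): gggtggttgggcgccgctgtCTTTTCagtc
EIF4B (chr12:53006436-53006465, plus strand): cgtgattgcctcatccgggtCTTTTgcgtt

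CACGTG, which reads the same on both strands, was in a window of 12 of the 48 members (25%), against 8.77% of all genes with windows, tested here or not. It is shown for the cap-binding protein and its scaffold, which changed in opposite directions with GO-Rg3-DOX and whose windows each hold it at more than 1 place. Capitals mark the motif. It begins 72 bases before the start in the EIF4E run and 67 bases before it in the EIF4G1 run. EIF3F, EIF3K and EIF4B had both kinds of match. A match describes these letters only and is not evidence of binding or of a regulated start.
EIF4E (chr4:98929188-98929217, minus strand): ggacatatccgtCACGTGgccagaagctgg
EIF4G1 (chr3:184314527-184314556, plus strand): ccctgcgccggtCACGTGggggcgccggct

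Library totals ran from 27802871 to 38877420 counts, and the 58 genes took 1.54% to 2.23% of them. The mitochondrially encoded genes took 5.31% to 6.28% of counts in untreated, 6.89% to 7.42% in GO-Rg3, 12.1% to 24.1% in GO and 12.8% to 19.4% in GO-Rg3-DOX libraries. Hepatocyte markers were abundant in the untreated cells (AFP at a mean of 12290 and ALB at 4139 CPM), whereas the blood and endothelial markers PTPRC, CD68, PECAM1 and CDH5 and the fibroblast marker COL1A1 averaged at most 0.598 CPM in any group and COL1A2 was at 1.87 to 4.29 CPM. The markers themselves moved with treatment. Of 9 hepatocyte markers, AFP (-1.07 on the log2 scale), ALB (-0.67) and TF (-0.40) fell and HNF4A (0.63) rose in GO at the edgeR threshold used below, while 7 rose and HNF4A fell (-1.02) in GO-Rg3-DOX and 0 were called in GO-Rg3. Of the 3 markers of other cells that were tested, COL1A1 (2.55) and COL1A2 (1.19) rose in GO-Rg3-DOX from low levels and CDH5 was not called. In GO and GO-Rg3, 0 of these 3 were called. Their part in the members' changes was not tested. CPM here is a gene's count scaled to a common library size after TMM, which matches libraries through the genes that differ least.

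The levels per transcript length in untreated cells differed widely between members. EEF1A1, which delivers aminoacyl-tRNA, stood at 2163 ± 22.3 RPKM (its CPM per kilobase of the canonical transcript, mean ± SD, n = 3). EEF1B2 followed with 522 ± 12.3, EIF5A with 457 ± 17.2 and EEF2 with 446 ± 45.0 RPKM, and the last 2 of these differed by less than the SD of EEF2. The kinases EIF2AK3 and EIF2AK4 had 6.60 ± 0.0510 and 6.42 ± 0.140 RPKM, and the tissue-restricted EEF1A2 had 0.0702 ± 0.0581 RPKM. Some low levels are uncertain because of how genes overlap. EEF1G, a core elongation subunit, was listed at 0 in 10 libraries and at 1 count in the other 2, and 99.7% of its exon bases lie under a readthrough gene on the same strand. EIF4A1 had 10.1 to 15.3 CPM in untreated cells, and same-strand readthrough genes cover 28.2% and 42.1% of its exon bases. EIF3C and EIF3CL are near-identical copies, EIF5AL1 and EIF2S3L are copies of EIF5A and EIF2S3, and 40 EEF1A1 pseudogene rows together took 706 to 2265 counts in a library, so reads could be split or lost between such copies.

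**Figure D1:**
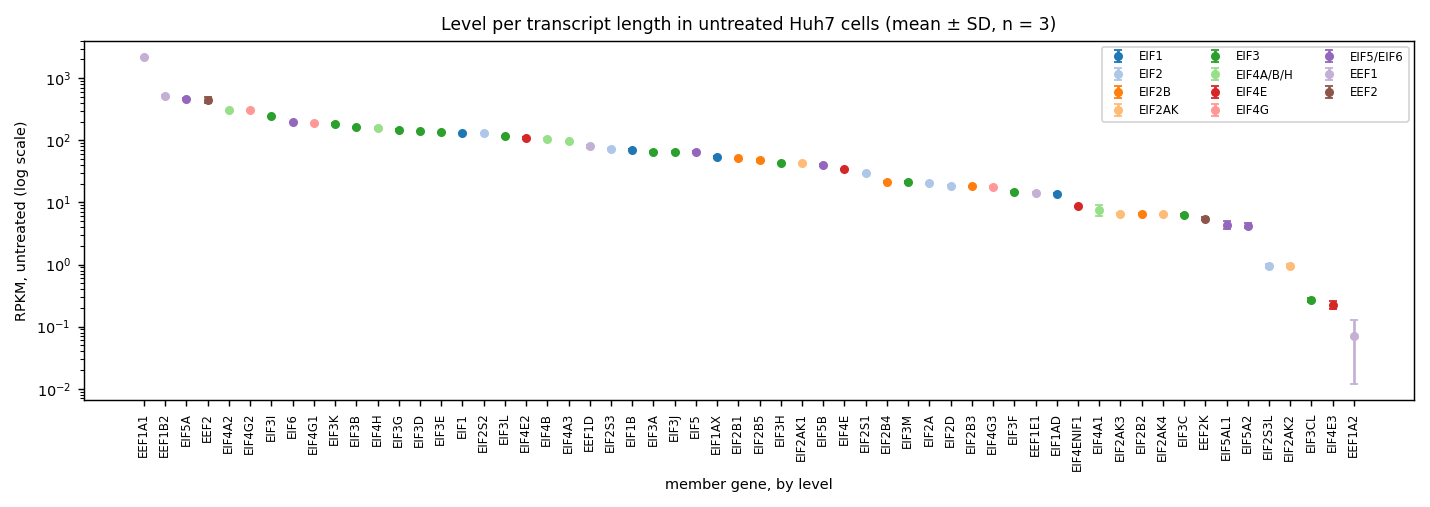
Level of each of the 58 genes in untreated Huh7 cells as RPKM on a log axis (points are means and bars the SD of 3 samples), coloured by family and ordered by level. EEF1A1 stands alone at 2163 RPKM and EEF1A2 is last at 0.0702 RPKM.

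With bare GO, more factor mRNAs fell than rose, and the remaining members were not called. Against untreated cells, 22 of the 58 members fell (37.9%) and 1 rose (1.72%) at an adjusted p below 0.01 in the quasi-likelihood test of edgeR, adjusted by Benjamini-Hochberg over all 17092 genes. Over all genes tested, 15.4% fell and 12.1% rose. The median log2 fold change was -0.12 for the members and 0.01 for all genes. The falls touched every family except EEF2. Falling were 3 of 5 EEF1, 3 of 5 EIF2B, 3 of 6 EIF2, 4 of 14 EIF3, 2 of 4 EIF1 and 2 of 3 EIF4G genes. The other falls were in 2 of 6 EIF5/EIF6, 1 of 4 EIF2AK, 1 of 5 EIF4A/B/H and 1 of 4 EIF4E genes. The falls were of moderate size, and 2 members (3.45%, against 6.47% of all genes) also passed an absolute log2 fold change of 1, EEF1E1 and EIF3E. With library totals alone in place of TMM, the split was 25 lower and 0 higher (16.3% and 7.16% of all genes), and the median of all genes moved to -0.11. With the mitochondrial genes, whose share was higher in GO, left out of the scaling, 21 members fell and 1 rose (14.7% and 12.6% of all genes). Of the 22 falls, 14 were called under TMM, RLE, TMM without mitochondrial genes, library totals and an offset for the GC content of transcripts alike, and those of EEF1A1, EIF1AX, EIF1B, EIF2S1, EIF3J, EIF3M, EIF4E and EIF4G2 were not. How many of all genes kept a fall under all these scalings was not computed. In bulk RNA, fewer cells expressing a gene and less of its RNA per cell cannot be told apart.

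With GO-Rg3 at the same dose, 0 of 58 members passed the edgeR test against untreated cells in either direction. Among all genes, 0.0585% rose, 0.105% fell and 0.0585% passed both thresholds, so few genes of any kind were called. At an unadjusted p below 0.05, 11 members (19%) and 13.4% of all genes passed, and DESeq2 called 0 members higher and 1 lower (0.421% and 1.52% of all genes). The members' log2 fold changes lay between -0.55 and 0.36 with a median of -0.08, against 0.00 for all genes. A missed threshold does not show that the levels were equal.

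GO-Rg3-DOX moved members both ways. Against untreated cells 17 of 58 rose (29.3%) and 14 fell (24.1%) in the edgeR test, where 25.5% of all genes rose and 30.5% fell. Past both thresholds were 13 members (22.4%) against 30.8% of all genes. The members' median log2 fold change was 0.07 and that of all genes -0.06. This balance depended on the scaling. TMM without the mitochondrial genes gave 17 higher and 15 lower (25.1% and 30.9% of all genes). Library totals alone gave 4 members higher and 27 lower, where 12.6% of all genes were higher and 42.7% lower and their median was -0.47. The GC offset gave 37 members higher and 9 lower, where 35.5% of all genes were higher and 25.2% lower and their median was 0.19. Under TMM, RLE, TMM without mitochondrial genes, library totals and the GC offset alike, 4 members rose (EEF1D, EEF2, EIF4G1 and EIF5A) and 9 fell (EEF1E1, EIF1AD, EIF2AK3, EIF2S3L, EIF4A1, EIF4A2, EIF4E, EIF4ENIF1 and EIF5). The share of all genes that kept a call under all these scalings was not computed, so these counts have no background. Every other call given below for GO-Rg3-DOX, or lack of one, is under TMM scaling.

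Rg3 on the carrier, at an equal dose of 400 µg/mL, was examined by comparing GO-Rg3 with GO directly. Of the 58 members, 12 were higher in GO-Rg3 (20.7%) and 0 were lower in the edgeR test, where 7.33% of all genes were higher, 6.25% lower and 2.77% past both thresholds. The median log2 difference was 0.12 for the members and -0.02 for all genes. In a fit on these 6 samples alone 0 members were called, with 0.954% of all genes higher and 1.87% lower, so the calls rest on the spread shared with the other groups. The count of higher members was 6 without GO replicate 3 (3.56% of all genes higher) and 6 without GO-Rg3 replicate 3 (2.93%). DESeq2 called 19 higher and 1 lower (11.3% and 7.87% of all genes). Since GO is the reference here and is set against untreated cells above, these comparisons share the GO samples and their values are given side by side only.

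**Figure D2:**
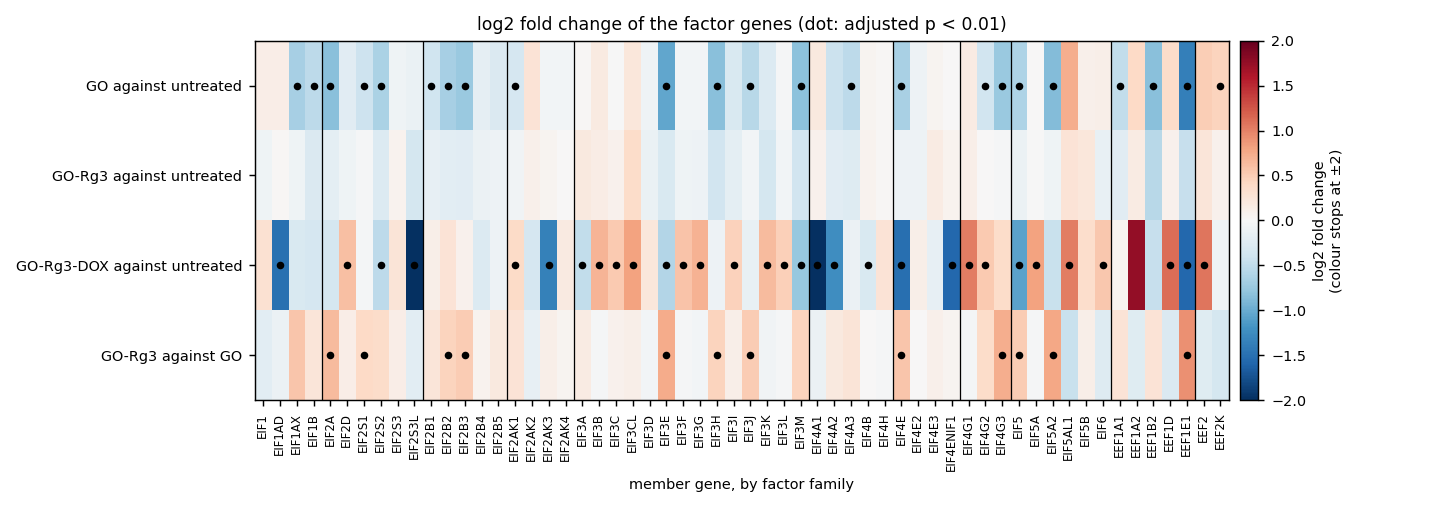
Colour gives the log2 fold change under TMM scaling of each of the 58 genes (columns, by family) in the 4 comparisons (rows), and a dot marks an adjusted p below 0.01 in edgeR. Dots fill 22 blue columns and 1 red column for GO, none for GO-Rg3, 17 red and 14 blue for GO-Rg3-DOX (4 red and 27 blue under library totals alone), and 12 red for GO-Rg3 against GO.

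The eIF2 group carries the initiator tRNA. EIF2S1, the alpha subunit that the stress kinases phosphorylate (ENSG00000134001, GRCh37 chr14:67827045-67853233), had 124, 124 and 120.2 CPM in untreated, 97.8, 93.9 and 85.7 in GO, 112, 134 and 118.7 in GO-Rg3 and 117.4, 116 and 124 in GO-Rg3-DOX samples. The GO samples all lay below every other sample, and the other 3 groups overlapped. Its log2 fold change was -0.41 ± 0.09, adjusted p = 0.0025 in GO, 0.40 ± 0.09, adjusted p = 0.0061 in GO-Rg3 against GO and -0.04 ± 0.09, adjusted p = 0.69 in GO-Rg3-DOX. With the GC offset the GO value was -0.01 and no longer called (adjusted p = 0.95), that against GO was 0.08 (adjusted p = 0.58), and that in GO-Rg3-DOX was a called rise of 0.64, where library totals gave a called fall (-0.46). The GO call was also lost without untreated replicate 1 or 2 or GO replicate 3 (adjusted p of 0.013 to 0.019), and that against GO without GO replicate 2 or 3 or GO-Rg3 replicate 2 or 3 (adjusted p of 0.013 to 0.035). EIF2S2, the beta subunit, fell in GO (-0.64 ± 0.11, adjusted p = 0.00029) and in GO-Rg3-DOX (-0.52 ± 0.11, adjusted p = 0.00054), and EIF2S3, the gamma subunit, was not called in any comparison under TMM (log2 fold changes of -0.08 to 0.25), though the GC offset gave a called 0.80 in GO-Rg3-DOX. EIF2A, which can bring in initiator tRNA by another route, fell in GO (-0.83 ± 0.12, adjusted p = 8.3e-05) and was higher in GO-Rg3 than in GO (0.63 ± 0.12, adjusted p = 0.0015). EIF2D, linked to ribosome recycling and unusual starts, rose in GO-Rg3-DOX (0.60 ± 0.09, adjusted p = 2.1e-05). The EIF2S3 copy EIF2S3L was low, at 2.67, 2.33 and 2.61 CPM in untreated, 1.68, 2.67 and 2.46 in GO, 1.59, 1.90 and 2.47 in GO-Rg3 and 0.577, 0.503 and 0.534 in GO-Rg3-DOX samples. Its GO-Rg3-DOX samples all lay below the others, with a log2 fold change of -2.24 ± 0.25, adjusted p = 1.3e-06, in a gene whose reads could be shared with EIF2S3.

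Subunit genes of the exchange factor eIF2B were lower in GO. In GO, 3 of its 5 subunit genes fell, EIF2B3 the most (-0.74 ± 0.10, adjusted p = 6.2e-05), then EIF2B2 (-0.66 ± 0.10, adjusted p = 0.00014) and EIF2B1 (-0.40 ± 0.08, adjusted p = 0.0017). EIF2B2 and EIF2B3 were higher in GO-Rg3 than in GO (0.45 ± 0.10, adjusted p = 0.0044 and 0.51 ± 0.10, adjusted p = 0.0021). None of the 5 was called in GO-Rg3-DOX under TMM, where log2 fold changes ran from -0.28 to 0.27, while the GC offset called EIF2B1 (0.49), EIF2B2 (0.62) and EIF2B3 (0.36) higher. Library totals alone called 2 of the 5 lower and 0 higher there, with a family median of -0.33.

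Among the 4 eIF2 alpha kinases, the clearest change was in EIF2AK3 (PERK), the sensor of unfolded protein in the endoplasmic reticulum. It had 30.2, 29.9 and 29.7 CPM in untreated, 24.6, 29.8 and 31.7 in GO, 28.4, 35.7 and 29.2 in GO-Rg3 and 11.4, 12 and 11.9 in GO-Rg3-DOX samples. The GO-Rg3-DOX samples lay below all others, and the rest overlapped. The log2 fold change in GO-Rg3-DOX was -1.35 ± 0.12, adjusted p = 1.3e-07. EIF2AK1 (HRI), which responds to haem shortage, had 191, 186 and 190.1 CPM in untreated, 144, 153 and 152 in GO, 174, 189.7 and 179 in GO-Rg3 and 256, 232 and 250.0 in GO-Rg3-DOX samples. GO was lowest and GO-Rg3-DOX highest without overlap. It fell in GO (-0.34 ± 0.08, adjusted p = 0.0045), a call lost without any 1 of the 3 untreated replicates or GO replicate 2 or 3 (adjusted p of 0.01 to 0.022), and it rose in GO-Rg3-DOX (0.38 ± 0.08, adjusted p = 0.00082), where library totals alone gave -0.04. EIF2AK2 (PKR), which senses double-stranded RNA, had 9.89, 9.81 and 8.997 CPM in untreated, 10.2, 13.1 and 11.2 in GO, 9.22, 11.3 and 10.2 in GO-Rg3 and 7.46, 7.80 and 7.36 in GO-Rg3-DOX samples. EIF2AK4 (GCN2), which senses uncharged tRNA, had 35.3, 36.4 and 34.9, 27.6, 38.6 and 36.7, 33.03, 39.2 and 34.8 and 41.6, 40.04 and 39.4 CPM in the same order. Under TMM neither passed the test in any comparison, with log2 fold changes in GO-Rg3-DOX of -0.34 ± 0.12, adjusted p = 0.024 and 0.18 ± 0.12, adjusted p = 0.18. The direction of EIF2AK2 in GO-Rg3-DOX turned with the scaling, from a called fall under library totals (-0.76) to a called rise with the GC offset (0.33). With that offset it was also called in GO (0.64) and in GO-Rg3 against GO (-0.46), and EIF2AK4 was called in GO-Rg3-DOX (0.47).

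Of the EIF1 genes, EIF1 and EIF1AX act in scanning for the start codon, while EIF1AD was placed in this family by its symbol. EIF1AD, named for a domain like that of eIF1A (ENSG00000175376, GRCh37 chr11:65764016-65769647), had 40.5, 39.1 and 41.4 CPM in untreated, 48.6, 40.4 and 44.7 in GO, 40.1, 41.8 and 41.02 in GO-Rg3 and 14.1, 13.4 and 15.4 in GO-Rg3-DOX samples. All 3 GO-Rg3-DOX samples lay far below the other 9, which overlapped, and the log2 fold change was -1.50 ± 0.10, adjusted p = 6.7e-09. EIF1AX and EIF1B fell in GO (-0.66 ± 0.15, adjusted p = 0.0032 and -0.53 ± 0.13, adjusted p = 0.0039), both calls being lost with the GC offset. EIF1 was not called in any comparison under TMM, though it was higher in GO-Rg3-DOX with the GC offset (0.62). Its levels in GO replicate 1 (436 CPM) and GO-Rg3-DOX replicate 1 (465 CPM) stood above the rest, which lay between 278 and 336 CPM. Those 2 libraries had the largest mitochondrial shares of their groups, 24.1% and 19.4%, and their part in the result was not tested.

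The 14 eIF3 genes divided in GO-Rg3-DOX. Under TMM, 8 rose (EIF3B, EIF3C, EIF3CL, EIF3F, EIF3G, EIF3I, EIF3K and EIF3L, by 0.46 to 0.81 on the log2 scale) and 3 fell (EIF3A, EIF3E and EIF3M), whereas with library totals alone 0 rose and 5 fell, and with the GC offset 11 rose and 0 fell. The shares of all genes higher and lower in these fits, given above, shifted the same way between scalings. The family's median log2 fold change was 0.47 under TMM, 0.05 under library totals and 0.52 under the GC offset. All 3 scalings placed EIF3A, EIF3E and EIF3M below the 8 others. Of those 8, EIF3CL had the largest rise under TMM (0.81), at a mean of 0.786 CPM in untreated and 1.38 CPM in GO-Rg3-DOX samples. Its reads could be split with those of its near-identical copy EIF3C, so their rises may not be separate. In GO the pattern was another one, with EIF3E, EIF3H, EIF3J and EIF3M lower and 0 higher under TMM. With the GC offset EIF3J (-0.14) and EIF3M (-0.41) were not called there, and EIF3G (-0.36), EIF3I (-0.36) and EIF3K (-0.39) were lower beside EIF3E and EIF3H.

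EIF3E (ENSG00000104408, GRCh37 chr8:109175016-109455725) had the largest change of the eIF3 genes in GO. It had 272, 275 and 267 CPM in untreated, 132, 144 and 119.2 in GO, 178, 258 and 223 in GO-Rg3 and 171, 178 and 193 in GO-Rg3-DOX samples. Untreated samples were highest and GO samples lowest, and GO-Rg3 spread between them, with its replicate 1 inside the range of the GO-Rg3-DOX samples. The log2 fold change was -1.04 ± 0.12, adjusted p = 1.9e-05 in GO, -0.59 ± 0.12, adjusted p = 0.00049 in GO-Rg3-DOX and 0.74 ± 0.12, adjusted p = 0.00061 in GO-Rg3 against GO. With the GC offset the GO-Rg3-DOX value turned to 0.14 (edgeR adjusted p = 0.20) while the GO value stayed called at -0.61. EIF3H fell in GO (-0.84 ± 0.09, adjusted p = 1.1e-05) from 172 ± 1.48 to 96.1 ± 4.72 CPM (mean ± SD, n = 3) without overlap. EIF3B rose in GO-Rg3-DOX from 506, 497 and 492 to 943, 732 and 726 CPM (0.68 ± 0.12, adjusted p = 0.00015), where replicate 1 was the highest.

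**Figure D3:**
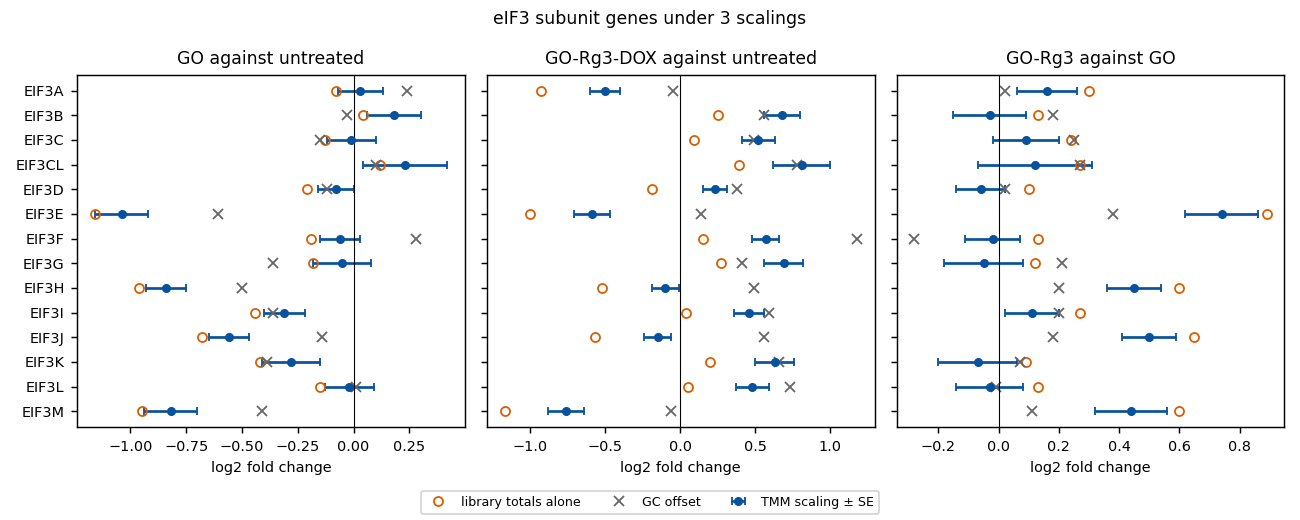
Log2 fold changes of the 14 eIF3 subunit genes in 3 comparisons, as TMM estimates with SE bars, under library totals alone (open circles) and with the GC offset (crosses). In GO-Rg3-DOX the family's median was 0.47, 0.05 and 0.52 under the 3 scalings, and EIF3A, EIF3E and EIF3M lie to the left under each.

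In the cap-binding complex, the parts changed in opposite directions with GO-Rg3-DOX. EIF4E, which binds the cap (ENSG00000151247, GRCh37 chr4:99800427-99850284), had 81.8, 83.1 and 82.01 CPM in untreated, 45.2, 56.9 and 55.5 in GO, 67.7, 88.2 and 74.7 in GO-Rg3 and 26.8, 29.9 and 30.01 in GO-Rg3-DOX samples. GO-Rg3-DOX samples were lowest, GO samples next, and GO-Rg3 overlapped untreated. Its log2 fold change was -1.51 ± 0.12, adjusted p = 3e-08 in GO-Rg3-DOX, a call kept in all 17 other settings, -0.65 ± 0.11, adjusted p = 0.00044 in GO and 0.55 ± 0.11, adjusted p = 0.003 in GO-Rg3 against GO. The last 2 calls were lost with the GC offset (-0.13, adjusted p = 0.10, and 0.13, adjusted p = 0.15), and the one against GO also without GO-Rg3 replicate 2 or 3 (adjusted p = 0.012 for both).

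EIF4G1, the main scaffold (ENSG00000114867, GRCh37 chr3:184032283-184053146), had 1045, 995 and 999 CPM in untreated, 1138, 1093 and 1179 in GO, 1284, 945 and 1081 in GO-Rg3 and 2378, 1869 and 1899 in GO-Rg3-DOX samples. GO-Rg3-DOX stood above every other sample, with replicate 1 the highest, and the log2 fold change was 1.02 ± 0.12, adjusted p = 3e-06. The 2 other scaffolds fell in GO, EIF4G2, which lacks the eIF4E-binding part (-0.38 ± 0.10, adjusted p = 0.0085), and EIF4G3 (-0.74 ± 0.12, adjusted p = 0.00022). EIF4G3 was higher in GO-Rg3 than in GO (0.72 ± 0.12, adjusted p = 0.00065), and EIF4G2 rose in GO-Rg3-DOX (0.53 ± 0.10, adjusted p = 0.00032). The EIF4G2 call in GO was lost under RLE (-0.36), TMM without mitochondrial genes (-0.37), the fit on the 6 samples alone (-0.37) and the GC offset (-0.17).

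The helicase EIF4A2 (GRCh37 chr3:186500994-186507686) had 553, 580.0 and 582 CPM in untreated, 368, 442 and 464 in GO, 405, 548 and 510.0 in GO-Rg3 and 218, 246 and 258 in GO-Rg3-DOX samples. GO-Rg3-DOX samples were the lowest 3, at a log2 fold change of -1.25 ± 0.12, adjusted p = 3.8e-07. EIF4A1, its paralog, had 10.1, 15.3 and 14.2 CPM in untreated, 12.8, 14.5 and 17.5 in GO, 10.3, 15.2 and 16.2 in GO-Rg3 and 2.31, 3.56 and 3.35 in GO-Rg3-DOX samples. It too was lowest in GO-Rg3-DOX (-2.09 ± 0.22, adjusted p = 8e-07), but the same-strand overlaps named above leave its level and its direction uncertain. EIF4ENIF1, which carries eIF4E into the nucleus and to processing bodies, had 31.03, 30.98 and 32.3 CPM in untreated, 32, 32.3 and 30.4 in GO, 35.4, 30.6 and 32.6 in GO-Rg3 and 10.6, 9.49 and 11.7 in GO-Rg3-DOX samples. The 3 GO-Rg3-DOX samples lay apart from the other 9, at -1.57 ± 0.10, adjusted p = 6.7e-09. EIF4B, the helicase cofactor, fell slightly in GO-Rg3-DOX (-0.30 ± 0.09, adjusted p = 0.0072), a call lost under RLE (-0.23) and with the GC offset (0.09). EIF4A3, of the exon junction complex, fell in GO (-0.52 ± 0.08, adjusted p = 0.00024), and EIF4H, EIF4E2 and EIF4E3 were not called in any comparison under TMM, though all 3 were higher in GO-Rg3-DOX with the GC offset (0.39, 0.29 and 0.56).

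Of the factors that act at subunit joining, EIF5, which makes eIF2 hydrolyse its GTP (GRCh37 chr14:103799881-103811362), had 380.3, 365 and 363 CPM in untreated, 194, 274 and 249.9 in GO, 308, 382 and 336 in GO-Rg3 and 152, 182 and 194 in GO-Rg3-DOX samples. GO and GO-Rg3-DOX samples lay below all untreated ones, and GO-Rg3 overlapped untreated. The log2 fold changes were -0.62 ± 0.13, adjusted p = 0.0015 in GO, -1.07 ± 0.13, adjusted p = 3.6e-06 in GO-Rg3-DOX and 0.51 ± 0.13, adjusted p = 0.0093 in GO-Rg3 against GO. That last call was lost in 8 of 17 other settings, among them without GO replicate 1 or 3 or GO-Rg3 replicate 2 or 3 (adjusted p of 0.024 to 0.039). EIF5A, the hypusine-bearing factor that helps ribosomes past difficult stretches, rose from 597, 554 and 582 to 1042, 1029 and 975 CPM in GO-Rg3-DOX without overlap (0.81 ± 0.11, adjusted p = 1.3e-05). Its paralog EIF5A2 had 23.04, 25.5 and 21.9 CPM in untreated, 9.67, 14.7 and 14.2 in GO, 19.4, 24.7 and 22.8 in GO-Rg3 and 13.5, 19.3 and 18.9 in GO-Rg3-DOX samples. GO values were low and overlapped GO-Rg3-DOX, with -0.86 ± 0.17, adjusted p = 0.00089 against untreated and 0.78 ± 0.17, adjusted p = 0.0035 for GO-Rg3 against GO. The call against GO was lost without GO-Rg3 replicate 2 or 3 (edgeR adjusted p of 0.014 and 0.016). The copy EIF5AL1 had 18.7, 14.3 and 17.9 CPM in untreated, 35.7, 22.7 and 25.8 in GO, 26.4, 16.1 and 18.8 in GO-Rg3 and 32.4, 44.8 and 27.03 in GO-Rg3-DOX samples. It rose in GO-Rg3-DOX (1.03 ± 0.22, adjusted p = 0.00059), a call lost under library totals (0.62, adjusted p = 0.016), and its reads could be those of EIF5A. EIF6, which keeps the large ribosomal subunit from joining early, rose in GO-Rg3-DOX (0.54 ± 0.14, adjusted p = 0.0042), and 17.3% of its exon bases lie under another gene on the same strand.

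Among the elongation factors, EEF1A1 (ENSG00000156508, GRCh37 chr6:74199031-74235310) had 7509, 7627 and 7658 CPM in untreated, 5013, 5958 and 5289 in GO, 5958, 7112 and 6527 in GO-Rg3 and 7012, 7963 and 8710 in GO-Rg3-DOX samples. GO samples lay below all untreated ones, GO replicate 2 equalled the lowest GO-Rg3 sample at this rounding, and GO-Rg3-DOX overlapped untreated. It fell in GO (-0.49 ± 0.11, adjusted p = 0.0031) and was not called in GO-Rg3-DOX (0.06 ± 0.11, adjusted p = 0.68), where the GC offset gave a called 0.54. The GO call was lost without any 1 of the untreated replicates or GO replicate 3 (adjusted p of 0.012 to 0.015) and with the GC offset (-0.25, adjusted p = 0.031). EEF1B2, which recharges eEF1A with GTP, fell in GO (-0.83 ± 0.14, adjusted p = 0.00042), from 413, 419 and 433 to 297, 214 and 201 CPM without overlap.

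EEF1D, another exchange subunit (GRCh37 chr8:144661867-144681711), went the other way in GO-Rg3-DOX. It had 171, 155 and 171 CPM in untreated, 256, 188 and 199 in GO, 204, 145 and 178 in GO-Rg3 and 361, 365 and 358 in GO-Rg3-DOX samples. GO-Rg3-DOX samples were tightly grouped above all others, at 1.12 ± 0.13, adjusted p = 2.2e-06. EEF1E1, an auxiliary protein of the aminoacyl-tRNA synthetase complex (GRCh37 chr6:8073593-8102792), had 15.1, 14.99 and 14.8 CPM in untreated, 6.07, 5.83 and 5.46 in GO, 7.92, 13.7 and 11.2 in GO-Rg3 and 4.37, 5.82 and 4.84 in GO-Rg3-DOX samples. GO and GO-Rg3-DOX samples lay below all others and overlapped each other. It had the largest fall of the members in GO (-1.37 ± 0.17, adjusted p = 2.9e-05) and the largest difference between GO-Rg3 and GO (0.92 ± 0.17, adjusted p = 0.0014), and it fell in GO-Rg3-DOX (-1.57 ± 0.17, adjusted p = 1.1e-06). A readthrough gene on the same strand covers 18.8% of its exon bases.

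EEF2, which moves the ribosome along the mRNA (ENSG00000167658, GRCh37 chr19:3976054-3985461), had 1561, 1280 and 1380 CPM in untreated, 2155, 1811 and 1946 in GO, 2257, 1145 and 1598 in GO-Rg3 and 3146, 2832 and 2900 in GO-Rg3-DOX samples. GO-Rg3-DOX samples were highest, GO samples lay above untreated, and GO-Rg3 spread from below the lowest untreated to above the highest GO sample. It rose in GO-Rg3-DOX (1.07 ± 0.18, adjusted p = 8.3e-05), and its GO difference did not pass the threshold (0.49 ± 0.18, adjusted p = 0.039). EEF2K, the kinase that inactivates eEF2 (GRCh37 chr16:22217599-22300059), had 38.9, 42.5 and 40.4 CPM in untreated, 48.9, 57.3 and 59.9 in GO, 42.2, 44.3 and 43.6 in GO-Rg3 and 40.7, 39.2 and 35.8 in GO-Rg3-DOX samples. All GO samples lay above the rest. It was the 1 member that rose in GO (0.45 ± 0.10, adjusted p = 0.0021), a call lost without untreated replicate 1 or 3 or GO replicate 3 (adjusted p of 0.012 to 0.015) and under library totals (0.34, adjusted p = 0.059).

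**Figure D4:**
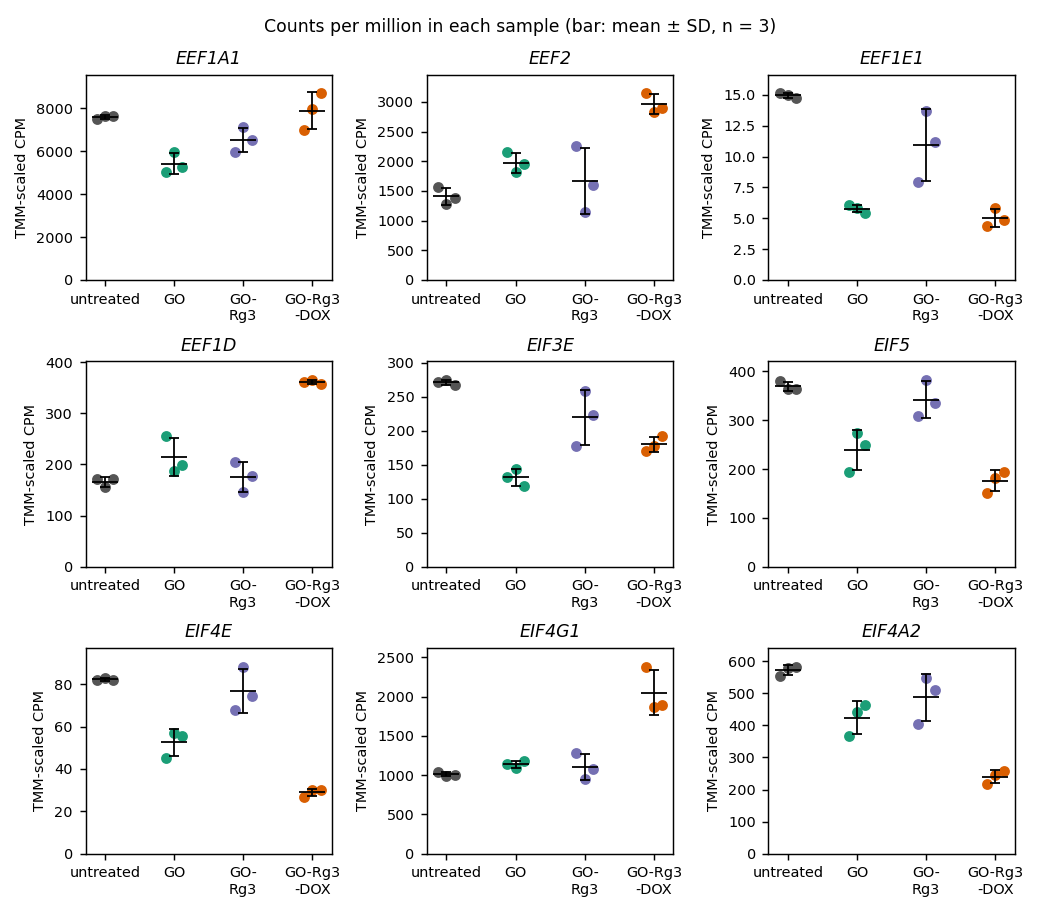
TMM-scaled CPM of 9 member genes in each of the 12 samples, from 0 on each vertical axis, with the mean and SD of each group of 3. The group means of EIF4E, EIF4A2 and EIF5 are lowest in GO-Rg3-DOX, where those of EEF2, EEF1D and EIF4G1 are highest, and that of EIF3E is lowest in GO.

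The members' fold changes ran with the base composition of their transcripts. Across the 58 genes, which are not independent replicates, Spearman's rho between the log2 fold change and the GC percentage of the canonical transcript was 0.57 in GO, 0.28 in GO-Rg3, 0.62 in GO-Rg3-DOX and -0.64 in GO-Rg3 against GO. Over the 16622 tested genes with a GC value it was 0.44, 0.20, 0.37 and -0.44. The members' GC ran from 33.9% to 64.6% with a median of 46.4%, against 48.4% for all genes. In GO, 18 of the 29 members on the AT-rich side of that median fell and 0 rose, while on the GC-rich side 4 fell and 1 rose. In GO-Rg3-DOX, 11 fell and 3 rose on the AT-rich side, and 3 fell and 14 rose on the GC-rich side. The shares of all genes called on each side were not computed, and the trend with GC was present over all genes too. With the GC offset in the fit, GO had 20 lower and 3 higher members (15 of the 23 calls shared with the TMM fit), and GO-Rg3 against GO had 10 higher and 1 lower (7 of these 11 calls shared). In these fits 14.8% of all genes were lower and 15.3% higher in GO. In GO-Rg3 against GO, 9.2% were higher and 8.42% lower.

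**Figure D5:**
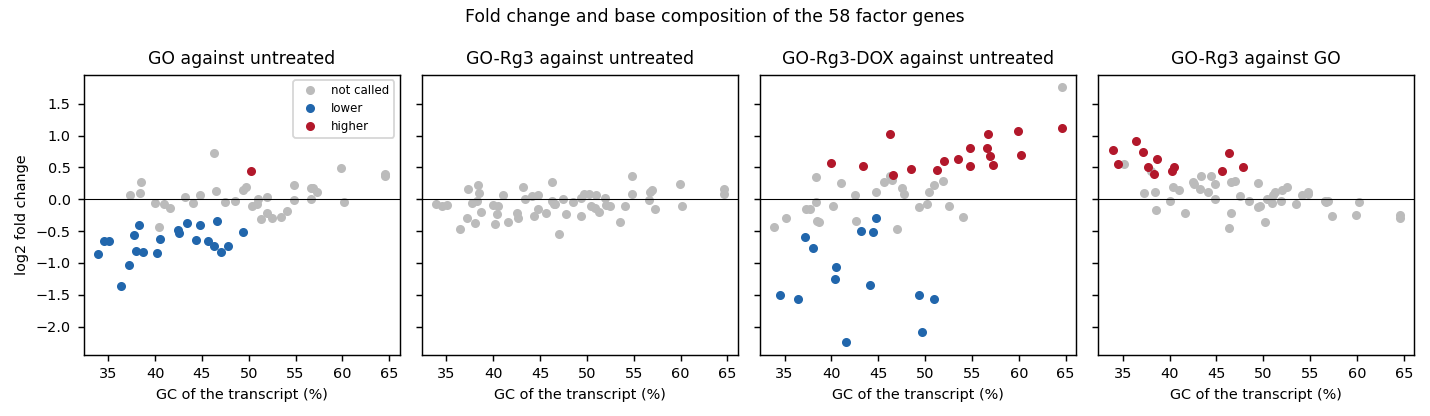
Log2 fold change under TMM of the 58 genes against the GC percentage of their canonical transcripts in the 4 comparisons, coloured by the edgeR call at an adjusted p below 0.01. Spearman's rho is 0.57, 0.28, 0.62 and -0.64 from left to right, and the members that fell in GO lie mostly on the AT-rich side.

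Under TMM scaling, the calls among the members with a pyrimidine start went both ways in GO-Rg3-DOX but not in GO. Of the 13, 4 fell and 0 rose in GO (EEF1A1, EEF1B2, EIF2A and EIF3M), and 4 rose (EEF2, EIF2D, EIF3F and EIF3K) and 4 fell (EIF2S3L, EIF3M, EIF4A2 and EIF4B) in GO-Rg3-DOX. Of the 35 with windows but without that start, 14 fell and 1 rose in GO, and 8 rose and 7 fell in GO-Rg3-DOX. Of the 12 with CACGTG, 5 fell and 1 rose in GO, and 3 rose and 2 fell in GO-Rg3-DOX. Of the 36 without it, 13 fell and 0 rose in GO, and 9 rose and 9 fell in GO-Rg3-DOX. Over all genes tested, 15.4% fell and 12.1% rose in GO, and 25.5% rose and 30.5% fell in GO-Rg3-DOX. The shares among all genes with or without each sequence were not computed, so nothing about these sequences is read from the counts.

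Other genes that control these factors were read from a list of 36 tested genes. Their values come from the TMM fit only, so how their calls depend on the scaling was not tested. Library totals alone moved the median of all genes in GO-Rg3-DOX from -0.06 to -0.47. In GO 12 fell (33.3%, against 15.4% of all genes) and 3 rose (8.33%, against 12.1%), and in GO-Rg3 0 were called. In GO-Rg3-DOX 12 rose (33.3%, against 25.5%) and 9 fell (25%, against 30.5%), shares not far from those of all genes. In GO-Rg3 against GO 9 were higher (25%, against 7.33%) and 2 lower (5.56%, against 6.25%). PDCD4, which blocks eIF4A, rose in GO (1.23 ± 0.09, adjusted p = 3e-07) and GO-Rg3-DOX (0.54 ± 0.09, adjusted p = 9.2e-05) and was lower in GO-Rg3 than in GO (-1.13 ± 0.09, adjusted p = 1.2e-06). MKNK2, a kinase of eIF4E, likewise rose in GO (0.88 ± 0.16, adjusted p = 0.0007) and was lower in GO-Rg3 than in GO (-0.69 ± 0.16, adjusted p = 0.0064). The poly(A)-binding proteins PABPC1 and PABPC4 rose in GO-Rg3-DOX (1.06 ± 0.10, adjusted p = 2.7e-07 and 1.23 ± 0.13, adjusted p = 9.3e-07), as did the eIF4E repressors EIF4EBP1 (0.99 ± 0.21, adjusted p = 0.00059) and EIF4EBP2 (0.67 ± 0.10, adjusted p = 3.2e-05). GIGYF2, which represses translation with EIF4E2, had the largest fall of the list in GO-Rg3-DOX (-2.0 ± 0.09, adjusted p = 2.1e-10). PPP1R15B, which directs a phosphatase to eIF2 alpha, fell in the same group (-1.26 ± 0.15, adjusted p = 3.5e-06), whereas the stress-induced PPP1R15A was not called there (-0.05 ± 0.10, adjusted p = 0.67). In GO the poly(A)-binding partners PAIP1 and PAIP2 fell (-0.72 ± 0.11, adjusted p = 0.00017 and -0.82 ± 0.12, adjusted p = 0.00011), and so did the mitochondrial recycling factor GFM2 (-0.83 ± 0.15, adjusted p = 0.00051) and the ribosome recycling factor ABCE1 (-0.72 ± 0.14, adjusted p = 0.001).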

How the data were processed

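RNA of 12 Huh7 samples was sequenced by the authors from a stranded mRNA kit, and the reads were aligned to GRCh37 and counted per Ensembl gene with featureCounts per the submitters' processing notes and methods. The deposited values are raw counts without normalization. The annotation release and the counting options for strand and multi-mapping reads are not given in the sources used here, so overlapping genes and near-identical copies are treated as uncertain.

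From these counts, the 17092 genes whose count reached 10 in 3 or more samples were scaled by TMM and fitted in 1 model over all 12 samples with edgeR 4.0.16 (quasi-likelihood test, R 4.3.3), without a replicate block. Benjamini-Hochberg adjustment covered every gene tested, and a gene was called at an adjusted p below 0.01. The second threshold was an absolute log2 fold change of 1, both as in the study. The test was also run on simulated counts. These had no shift of mitochondrial share or GC content built in between groups, so they say nothing about the choice of scaling. DESeq2 1.42.0 and the other settings are alternatives. Totals of 27802871 to 38877420 counts set the precision, and low members such as EEF1A2 rest on few counts.

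Members, families and gene lists were chosen with earlier results of these data known. Values in every sample are given for members past both thresholds, for the 3 largest called rises and falls of each comparison, for EIF2S1, EIF4E, EIF4G1, EIF4A1, EEF1A1 and EEF2, and for the 4 EIF2AK kinases, and other members are given by family. Of the 63 rows with a fitting symbol, 5 were under the minimum, among them EEF1G and a Y-linked gene whose level is not given, and 120 further rows were left out by the form of their symbol, EIF4EBP1 and EIF4EBP2 among them, which were read with the control genes. Lengths, GC content (97.3% of tested genes) and positions came from GENCODE lifted to GRCh37, and promoter windows from RefSeq on GRCh38.p14. Tables and figures were made with Python 3.11.15, pandas 2.3.3 and matplotlib 3.10.9.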

Additional observations from a re-analysis of the deposited data

How the results depend on the processing

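Of 30 calls of named genes, 16 kept their direction and their side of the threshold in every other setting, and over all 510 values 457 did so, 50 lost the call and 3 turned in direction. These 3 were EIF2AK1 in GO-Rg3-DOX with library totals alone (-0.04), and EIF3E in GO-Rg3-DOX with the GC offset (0.14) and with the GC offset and replicate block (0.14). The cause was not tested. In GO the count of higher members, 1, became 0 with library totals alone, 2 with DESeq2, 3 without a count filter, with the GC offset and with only the 6 samples compared, and 4 at an adjusted p below 0.05, with the replicate block alone or joined to the GC offset, and leaving out single replicates gave 0 to 2. Lower members in GO numbered 15 to 25 in all settings. Members past both thresholds in GO were 0 with the GC offset, with or without the block, and 1 to 3 without single replicates. In GO-Rg3, 1 member was lower at an adjusted p below 0.05, without a filter and with DESeq2. In GO-Rg3-DOX the higher members numbered 4 with library totals alone and 37 with the GC offset, with or without the block, the lower ones 27 with library totals, 9 with the GC offset and 10 with the block added to it, and those past both thresholds 7 with the GC offset and 6 with the block added. For GO-Rg3 against GO, higher members numbered 19 at an adjusted p below 0.05 and with DESeq2, 0 with only the 6 samples compared, and 6 to 15 without single replicates. Lower members there were 1 at an adjusted p below 0.05, with 10 counts in every sample, with DESeq2, with the GC offset alone, with the replicate block alone and with both, and 0 to 1 without single replicates. Past both thresholds was 1 member with library totals alone and 0 to 1 without single replicates. Whether replicate numbers pair the samples is not known. The deviations of same-numbered samples had a mean correlation of 0.092 (range -0.024 to 0.253 over 18 pairs). Those of differently numbered samples had -0.045 (range -0.257 to 0.212 over 36 pairs). The replicate block gave 4 higher and 23 lower members in GO, 0 in GO-Rg3, 18 and 17 in GO-Rg3-DOX, and 15 and 1 in GO-Rg3 against GO. Over all genes it called 15.2% higher and 18.7% lower in GO, against 12.1% and 15.4% without it. In GO-Rg3 against GO it called 10.6% and 9.13%, against 7.33% and 6.25%. Depth limits the low members, EEF1A2 having 1 to 15 counts in a library.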

Other observations

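Among the rows left out by the form of their symbol, the antisense row EIF3J-AS1 had 184, 164 and 256 counts in untreated, 159, 220 and 215 in GO, 168, 165 and 195 in GO-Rg3 and 64, 74 and 74 in GO-Rg3-DOX libraries. It was not among the genes that share exon bases with EIF3J in the annotation used here. Overlap in the release used for counting could not be checked. The readthrough row that covers EEF1G held 26, 29 and 36 counts in untreated and 2, 12 and 12 in GO-Rg3-DOX libraries.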
